A study of Mus musculus with 7 samples.

Results

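Acetylation of histone H3 at lysine 27 (H3K27ac) was compared between 2 wild type mouse embryonic stem (ES) cell lines, F123 and J1, at the start sites of protein-coding genes and in the distal genome. The members were all genomic windows in which at least 1 line held enough alignments to be compared. These were 8396 of 22359 promoter windows, each reaching 2 kb to either side of a protein-coding start, and 16929 of 2517344 distal bins of 1 kb, which lay more than 2 kb from every such start. The comparison used 2 of the 7 samples of the series, the H3K27ac library of F123 and that of J1, with no replicate of either. The other libraries of the series were an H3K4me3 ChIP of F123, used here as a second mark, and RNA of F123, of which only the wild type library was used. F123 is a hybrid line derived from a cross of Mus musculus castaneus (CAST) and 129 (S129/SvJae) mice, and it was passaged on gelatin without feeder cells before harvest. J1 is an ES line of 129 origin, and the growth conditions given for its library were those of F123. Neither library came from edited or treated cells, and both labels named the same antibody (Abcam ab4729). With 1 library per line, the line, its genotype, the culture, the library preparation and the lower match of CAST sequence to the reference genome cannot be told apart, and no test between lines was possible. The values below compare these libraries, and all intervals cover counting error only.

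H3K27ac is deposited on nucleosomes that flank active promoters and active enhancers, largely by the acetyltransferases p300 and CBP. At promoters it accompanies H3K4me3, whereas active enhancers carry H3K27ac with little H3K4me3. In ES cells the mark covers the enhancers of the pluripotency network, including clusters of enhancers bound by Oct4, Sox2 and Nanog that are termed super-enhancers. Enhancers vary more between cell types and between strains than promoters do.

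Sequences are shown here for the 3 F123 sites with the most line-specific bins, for the 2 J1 sites that came next after the first in such bins, and for the enhancer cluster downstream of Sox2 as a site marked in both lines. Each is the run of 300 bases with the densest alignments in the site, given 5′ to 3′ on the plus strand of mm9. Capitals mark exact matches, on either strand, to 1 of 7 short strings tied to transcription factors, none of which contains another. The strings were ATGCAAAT for the Oct4 octamer, ACAATG for Sox factors, TCAAGGTCA for Esrrb and GGGTGTGG for Klf factors. The others were TTCCNGGAA for Stat factors, TGANTCA for AP-1 and AGATAA for GATA factors. Matches were found only in the Sgsm1 window, with 1 to the Sox and 1 to the Klf string, and in the Sec14l1 window, with 1 to the Sox string. The first 3 windows held 35, 23 and 23 alignments in F123 against 1, 0 and 4 in J1 thinned to as many distinct alignments, the next 2 held 14 and 9 in F123 against 15 and 24 in J1, and the Sox2 window held 40 and 27. The Sgsm1 window was thus marked in both lines, and its site was called from bins around it.
Arntl site, higher in F123, chr7:120403451-120403750: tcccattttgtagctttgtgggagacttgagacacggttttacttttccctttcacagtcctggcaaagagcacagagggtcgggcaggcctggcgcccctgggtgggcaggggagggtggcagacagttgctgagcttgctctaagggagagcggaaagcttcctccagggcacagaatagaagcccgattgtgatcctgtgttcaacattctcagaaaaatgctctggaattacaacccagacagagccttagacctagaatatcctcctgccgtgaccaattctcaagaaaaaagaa
9030624J02Rik site, higher in F123, chr7:125965495-125965794: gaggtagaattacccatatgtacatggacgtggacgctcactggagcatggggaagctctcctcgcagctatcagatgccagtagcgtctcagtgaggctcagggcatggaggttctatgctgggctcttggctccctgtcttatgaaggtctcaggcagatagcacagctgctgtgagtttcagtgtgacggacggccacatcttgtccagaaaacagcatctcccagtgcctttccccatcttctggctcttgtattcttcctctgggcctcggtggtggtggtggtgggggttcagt
Spata18 site, higher in F123, chr5:74082866-74083165: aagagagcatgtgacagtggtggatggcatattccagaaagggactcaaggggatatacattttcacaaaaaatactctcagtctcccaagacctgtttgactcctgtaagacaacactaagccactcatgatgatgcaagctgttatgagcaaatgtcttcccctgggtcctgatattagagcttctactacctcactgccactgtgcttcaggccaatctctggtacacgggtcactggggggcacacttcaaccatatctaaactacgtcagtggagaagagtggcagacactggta
Sgsm1 site, higher in J1, chr5:113758775-113759074: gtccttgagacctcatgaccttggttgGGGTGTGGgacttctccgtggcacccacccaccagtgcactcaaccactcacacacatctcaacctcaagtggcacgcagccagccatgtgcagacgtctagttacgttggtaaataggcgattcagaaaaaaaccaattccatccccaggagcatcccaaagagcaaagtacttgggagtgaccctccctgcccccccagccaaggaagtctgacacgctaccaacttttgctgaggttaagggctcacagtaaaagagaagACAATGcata
Sec14l1 site, higher in J1, chr11:116944399-116944698: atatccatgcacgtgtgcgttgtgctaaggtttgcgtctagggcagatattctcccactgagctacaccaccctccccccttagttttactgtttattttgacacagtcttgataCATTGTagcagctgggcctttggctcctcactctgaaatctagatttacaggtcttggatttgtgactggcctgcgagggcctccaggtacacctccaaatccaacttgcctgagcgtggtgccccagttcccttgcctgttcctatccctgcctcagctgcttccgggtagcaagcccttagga
Sox2 downstream site, both lines, chr3:34658535-34658834: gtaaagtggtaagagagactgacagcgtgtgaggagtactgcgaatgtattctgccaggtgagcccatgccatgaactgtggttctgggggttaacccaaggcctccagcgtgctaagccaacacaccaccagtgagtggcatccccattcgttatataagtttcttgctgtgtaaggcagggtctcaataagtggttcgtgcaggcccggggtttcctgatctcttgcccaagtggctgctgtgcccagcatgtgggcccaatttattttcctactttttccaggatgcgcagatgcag

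The F123 library held 1576875 distinct alignments from 8047321 reads and the J1 library 7743500 from 81285265, so that each distinct alignment stood for 5.10 and 10.5 reads. To compare counts directly, J1 was thinned by a random draw to the 1576574 alignments that F123 had on the 21 chromosomes used. This matched the number of distinct alignments and not of reads, since J1 thinned to the read number of F123 kept 3371923 distinct alignments. F123 then had the larger share of its alignments in promoter windows (18.5% against 12.2%). In the tested distal bins the shares were 19.8% for F123 and 12.6% for J1. These bins had at least 10 alignments in either line, which F123 reached in 14179 and J1 in 9591. The distal shares thus depend in part on the filter. Ratios of F123 to J1 were centred on their median over the tested windows, which passed the same filter. The median stood at 0.64 on the log2 scale (1.56-fold) for tested promoters and 0.66 (1.58-fold) for tested distal bins. All fold values below are relative to that centre unless stated otherwise. All 10 ES cell markers had at least 10 alignments at their promoters in both lines, with 57 to 330 (median 128) in F123 and 34 to 174 (median 75) in J1. None of 10 fibroblast markers, the sign of feeder cells, reached 10 in either line (0 to 5 in F123, 0 to 7 in J1), nor did any of 5 trophectoderm markers matched. Of 6 primitive endoderm markers, 4 reached 10 in F123 and 2 in J1, with at most 16 and 13 alignments.

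Most tested promoters carried the mark in both lines. A window was tested when the higher line had at least 10 alignments, and it was called when the centred ratio was past 3-fold and its 95% exact binomial interval lay on one side of the centre. By this rule 134 promoters (1.6% of those tested) were higher in F123 and 538 (6.41%) were higher in J1, while 5738 had at least 10 alignments in both lines and differed by less than 3-fold. F123 reached 10 alignments at 7481 promoters and J1 at 6757, of which 5842 were shared, 78.1% of the F123 list and 86.5% of the J1 list. Windows of neighbouring genes can overlap, and the calls fell in 125 separate regions for F123 and 505 for J1. The windows nearest the threshold stood at 3.01-fold inside and 3.0-fold outside it for F123, and at 3.0-fold and 2.99-fold for J1. Across the tested promoters the log2 counts of the lines had a Pearson r of 0.68, a description over 8396 windows that share 2 libraries. The surplus of J1 calls rested on the centring, since without it the calls turned to 699 for F123 and 186 for J1.

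**Figure D1:**
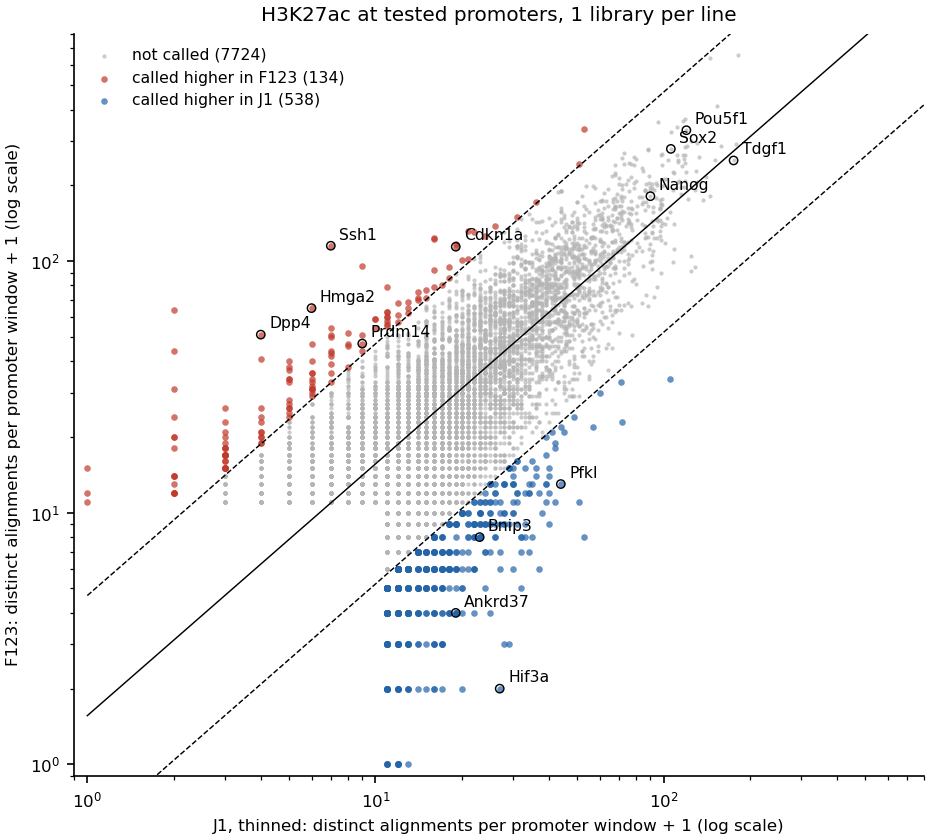
Distinct H3K27ac alignments in 4 kb promoter windows of F123 and of J1 at equal numbers of distinct alignments, both on log axes with 1 added, one point per tested promoter, colours for the call, a solid line for the centre and dashed lines for 3-fold to either side. The 134 promoters called higher in F123 lie above the upper dashed line and the 538 called higher in J1 below the lower one, while Pou5f1, Sox2, Nanog and Tdgf1 lie between the dashed lines at high counts.

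The promoters called in the 2 directions differed in level. Those called in F123 had a median of 35.5 alignments in F123 and 5 in J1, whereas those called in J1 had 14 in J1 and 5 in F123. Of the F123 calls, 94.0% stood more than 2-fold above the flanking sequence in F123, and of the J1 calls 56.1% did so in J1. For all tested promoters these shares were 81.2% in F123 and 75.2% in J1. The J1 calls were thus less often enriched over their flanks in J1 than tested promoters in general. In the opposite line, 71 of the 134 F123 calls and 129 of the 538 J1 calls stood above this level. The J1 library also held 6165139 alignments that the draw had left out, and these gave a second value for J1 from the same library. With them, 45 of the 134 F123 promoters (33.6%) and 316 of the 538 J1 promoters (58.7%) were still past 3-fold, and 129 and 538 kept their side of the centre. The F123 count behind each call was the same in both values, so these shares do not test the F123 side.

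Of the 10 promoters with the largest ratios towards F123, Ssh1, Dpp4 and Hmga2 were among those with the most alignments. Ssh1, a phosphatase that activates the actin-severing protein cofilin (window chr5:114414765-114418764), held 114 alignments in F123, 6 in thinned J1 and 25 in all of J1, a 10.5-fold difference (5.42 to 33.8). Dpp4, a peptidase of the cell surface (chr2:62248288-62252287), held 50, 3 and 13 (8.16-fold, 3.45 to 53.5). Hmga2, an architectural chromatin protein expressed in early embryos (chr10:119911525-119915524), held 64, 5 and 30 (6.93-fold, 3.33 to 26.1). These 3 stayed past 3-fold with the alignments left out of the draw, at 12.6-fold, 9.18-fold and 5.63-fold. At the start of the gene record in place of the start with the most alignments, Ssh1 was not called, with a centred log2 ratio of 0.67 against 3.39. At Eps8, which couples growth factor receptors to actin, F123 held 30 alignments and J1 held 1 of 24 after thinning, and the ratio of 9.92-fold (3.19 to 783) was 2.88-fold with the alignments left out of the draw. At the start of the gene record Eps8 turned to the J1 side (-0.07 on the centred log2 scale).

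The predicted genes Gm15698 and Gm10775 had 63 and 43 alignments in F123 against 1 in thinned J1 each, with ratios of 20.5-fold (6.98 to 1618) and 14.1-fold (4.68 to 1112). At Ifltd1 the counts were 23 and 1, or 7.68-fold (2.39 to 606). The 3 other promoters of the first 10 rested on few alignments and had 0 in thinned J1. Dnajc25, a co-chaperone of the DnaJ family, held 14 alignments in F123 and 12 in all of J1, Sptlc1, a subunit of the first enzyme of sphingolipid synthesis, 11 and 31, and Asb9 10 and 3. With the alignments left out of the draw, Gm15698 stood at 6.43-fold, Gm10775 at 8.53-fold and Asb9 at 3.98-fold, while Ifltd1 (2.87-fold) and Dnajc25 (2.36-fold) fell within the threshold and Sptlc1 turned to the J1 side (-0.22 on the log2 scale). The windows of Gm15698 and Coil, which is also called in F123, overlap. The local background outside the windows was also higher in F123 around several of these genes, by 1.17-fold at Gm15698, 1.34-fold at Gm10775 and 1.36-fold at Hmga2, and its part in their ratios was not tested.

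Promoters of higher counts that were named after their values were seen showed smaller and better bounded ratios. Llgl2, a regulator of epithelial polarity, held 335 alignments in F123, 52 in thinned J1 and 303 in all of J1 (4.06-fold, 3.07 to 5.63). Tcf7l1, the Wnt pathway repressor that restrains the pluripotency network in ES cells, held 130, 21 and 92 (3.81-fold, 2.49 to 6.62). Gjb5, a gap junction connexin, held 148, 30 and 139 (3.08-fold, 2.12 to 4.84). Lats1, a kinase of the Hippo pathway, whose window is largely that of Pcmt1 too, held 62, 10 and 47 (3.67-fold, 2.02 to 8.68). All 4 remained past 3-fold with the alignments left out of the draw, from 3.30-fold at Llgl2 to 4.38-fold at Tcf7l1.

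First in centred ratio towards J1 was Hif3a, which encodes an alpha subunit of the hypoxia-inducible factors. Its promoter window (chr7:17640028-17644027) held 1 alignment in F123, 26 in thinned J1 and 118 in all of J1, a 21.1-fold difference (6.67 to 1666), and 19.2-fold with the alignments left out of the draw. At the start of the gene record its centred log2 ratio was -1.65 against -4.40, and it was not called. The next 9 promoters had no alignment in F123, and their bounds hold for the J1 alignments drawn. Ppip5k1, an inositol pyrophosphate kinase, was at least 6.25-fold higher in J1 (12 alignments). BC066135, Cdc16 (a subunit of the anaphase-promoting complex), Gm10479, Gm454 and Smyd1 (a methyltransferase of muscle) were each at least 5.73-fold higher (11 alignments). Crip1, Gdpd4 and Tcp11l2 were each at least 5.21-fold higher (10 alignments). Relative to the flanking sequence in J1, the windows of Gm454, Tcp11l2 and Smyd1 stood at 0.53, 0.78 and 0.97. Those of BC066135 and Crip1 stood at 1.13 and 1.21, so J1 itself showed little or no local enrichment there. Cdc16, Ppip5k1, Gdpd4 and Gm10479 stood at 2.31, 2.56, 3.24 and 14.4. All of J1 held 21 to 54 alignments at these 9 promoters, and those left out of the draw, scaled, came to 2.56 at Smyd1 and 2.81 at Gm454, both under the floor of 3 that the bounds use, and to more at the others, so their J1 levels were low and their rank rested on the 0 in F123.

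Other J1-called promoters, again named after their values were seen, had higher counts. Slc39a4, a zinc importer, held 33 alignments in F123, 104 in thinned J1 and 438 in all of J1 (4.83-fold, 3.30 to 7.52). Scd1, a stearoyl-CoA desaturase that makes monounsaturated fatty acids, held 10, 50 and 214 (7.24-fold, 3.92 to 17.3). Agpat3, an acyltransferase of phospholipid synthesis, held 1, 15 and 56 (12.5-fold, 3.61 to 987). Gli1, a transcription factor and target of hedgehog signalling, held 20, 44 and 206 (3.35-fold, 1.98 to 6.16). All 4 remained past 3-fold with the alignments left out of the draw, from 3.16-fold at Gli1 to 8.97-fold at Agpat3.

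Gene lists were then read against these background shares of 1.6% and 6.41%. Over all tested promoters the median centred log2 ratio was 0 by construction, and no list was tested as a set. The lists were chosen with earlier results of these data known, so their ranks and shares are descriptions only. The hypoxia and glycolysis list stood lowest among lists with at least 10 tested members, with a median of -0.76 over 15 tested promoters of 18 and 5 called in J1 (33.3%). Highest among lists with at least 10 tested members was the ATF4 list of amino acid stress (0.65 over 10). The p53 targets, with only 8 tested members, stood at 0.80, the highest among lists with at least 8. Housekeeping genes (0.36 over 13), naive pluripotency genes (0.36 over 23) and ribosomal protein genes (0.34 over 76) had almost equal medians. Without centring every median was 0.64 higher, which put the hypoxia list at -0.12 and turned every other negative median of a list positive except that of the germline list, which rested on 1 promoter.

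**Figure D2:**
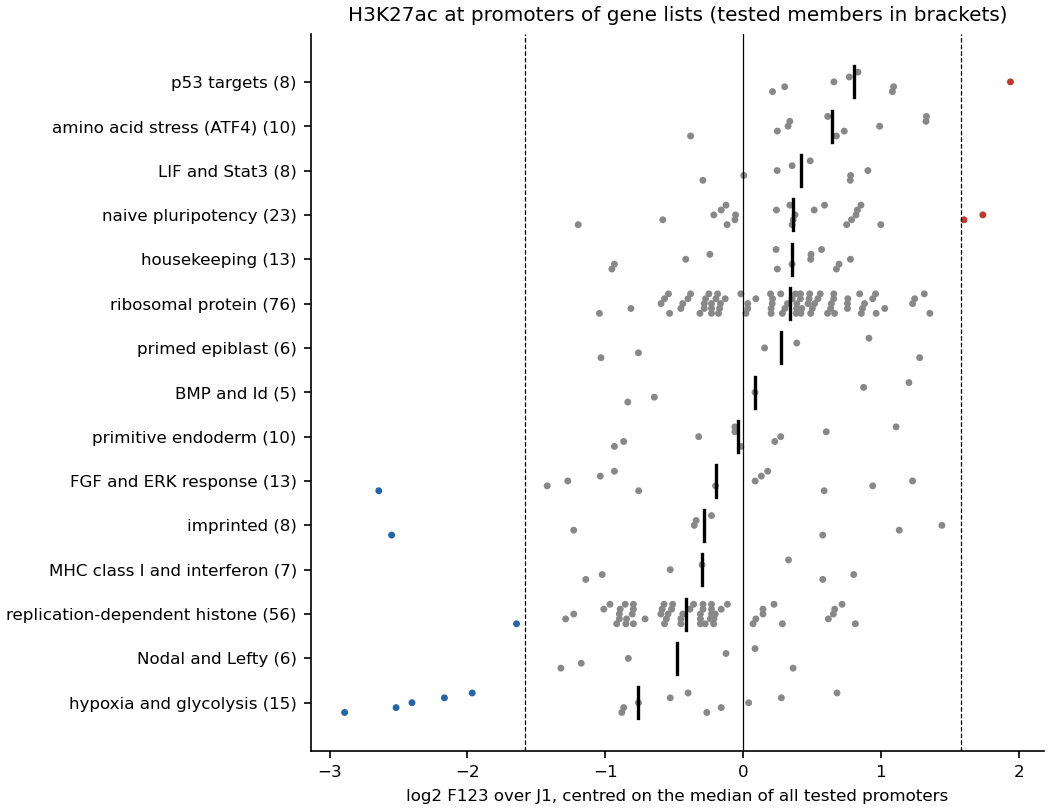
Centred log2 ratio of F123 to J1 H3K27ac at tested promoters for the gene lists with at least 5 of them, one point per promoter, with bars for list medians, dashed lines at 3-fold, red for calls in F123 and blue for calls in J1. Of 15 hypoxia and glycolysis promoters 12 lie below 0, whereas all 8 tested p53 targets lie above it.

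Several glycolytic and hypoxia-inducible genes carried more H3K27ac in J1. Ankrd37, a direct target of HIF-1, held 3 alignments in F123, 18 in thinned J1 and 94 in all of J1 (7.42-fold, 2.74 to 49.7). Bnip3, a receptor for mitophagy, held 7, 22 and 118 (4.49-fold, 2.03 to 13.6). Pfkl, a phosphofructokinase of glycolysis, held 12, 43 and 183 (5.29-fold, 2.90 to 11.7). The other calls were Car9, a carbonic anhydrase, with 2, 10 and 24 alignments, and P4ha1, a prolyl hydroxylase of collagen, with 5, 14 and 57. Of these 5, Car9 alone fell within 3-fold with the alignments left out of the draw (2.39-fold), while P4ha1 stood at 3.12-fold. Without centring, Bnip3 (-1.52 on the log2 scale) and P4ha1 (-1.32) were within 3-fold. Car9 kept its call in 10 of 17 alternatives and P4ha1 in 11, against 15 for Bnip3, 16 for Ankrd37 and 17 for Pfkl.

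Other members of the list did not differ as much. Hk2, the hexokinase that starts glycolysis, had the opposite direction, with 177 alignments in F123, 70 in thinned J1 and a centred log2 ratio of 0.68, and the glucose transporter gene Slc2a1 stood at 0.04. Slc2a3, Aldoa and Pdk1 lay between -0.88 and -0.76 with 44 to 65 alignments in F123 and 51 to 76 in thinned J1, so that their raw counts hardly differed and their negative ratios followed from the centre. Among distal bins within 50 kb of the starts of the list, 11 of 57 tested were called in J1 and 1 in F123, against 10.3% and 7.2% of all tested distal bins. Egln3, the prolyl hydroxylase that marks HIF for degradation, was not tested at its promoter (3 and 6 alignments). It was the nearest start of 3 J1 sites and 1 F123 site. The largest J1 site, 111 kb from this start and so outside the 50 kb above, held 15 alignments in F123 and 68 in J1 (6.83-fold). Pfkfb3, which makes the activator of phosphofructokinase and is not on the list, was noted after its values were seen, with 3, 18 and 81 alignments at its promoter (7.42-fold, 2.74 to 49.7) and 2 J1 sites nearest to it.

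**Figure D3:**
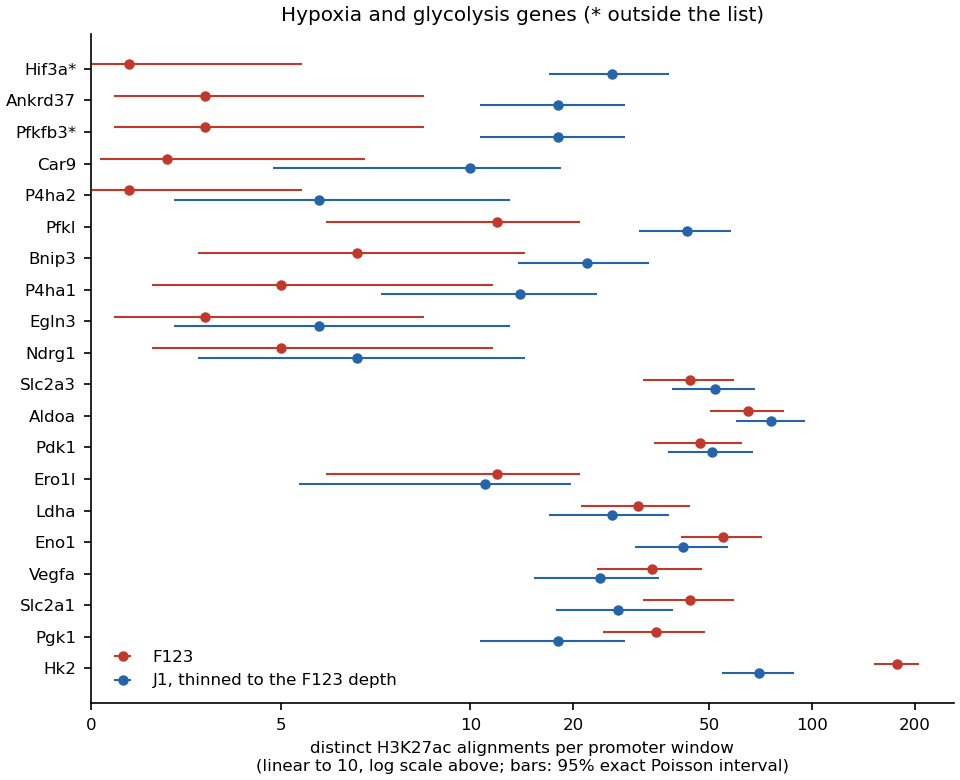
Distinct H3K27ac alignments of F123 and of J1 at equal numbers of distinct alignments, with 95% exact Poisson intervals as bars and an axis that is linear to 10 and logarithmic above, at the promoters of the hypoxia and glycolysis list and of Hif3a and Pfkfb3, marked by asterisks as outside the list. J1 is the higher line at Hif3a, Pfkfb3 and the 5 called members, while Hk2 has 177 alignments in F123 and 70 in J1.

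The 300 bases before the start were read for the 5 J1-called genes of the list and for Hif3a and Pfkfb3. The reason was that hypoxia-inducible factors bind sequences with cores such as ACGTG. Those of Bnip3, Pfkfb3 and Ankrd37 are shown as examples that hold this core, given 5′ to 3′ on the strand of the gene in mm9, with ACGTG or its reverse complement in capitals. Only this string was searched, and it was chosen after the values were seen. It occurred in these windows at 20.3% of all protein-coding promoters and 26.2% of those tested, at 27.6% of the F123-called and 23% of the J1-called promoters, and at 9 of the 18 promoters of the list. Of these 7 windows, those of Bnip3, Pfkfb3, Ankrd37 and P4ha1 held it at 1 position each, which in Bnip3 and Pfkfb3 was the palindrome CACGTG and so matched on both strands, while those of Hif3a, Car9 and Pfkl held none.
Bnip3, chr7:146101190-146101489, minus strand: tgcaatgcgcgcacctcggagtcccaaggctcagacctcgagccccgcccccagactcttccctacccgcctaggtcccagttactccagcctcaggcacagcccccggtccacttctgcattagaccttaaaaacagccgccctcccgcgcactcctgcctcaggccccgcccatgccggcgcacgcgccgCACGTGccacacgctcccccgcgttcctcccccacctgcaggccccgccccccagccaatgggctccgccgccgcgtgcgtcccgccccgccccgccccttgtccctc
Pfkfb3, chr2:11423653-11423952, minus strand: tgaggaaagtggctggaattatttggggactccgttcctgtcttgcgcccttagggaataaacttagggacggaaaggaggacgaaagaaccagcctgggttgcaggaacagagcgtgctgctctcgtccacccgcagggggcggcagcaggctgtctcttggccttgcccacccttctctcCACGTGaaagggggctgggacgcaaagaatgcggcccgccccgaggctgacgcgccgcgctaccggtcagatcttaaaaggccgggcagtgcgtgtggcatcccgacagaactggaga
Ankrd37, chr8:47085222-47085521, minus strand: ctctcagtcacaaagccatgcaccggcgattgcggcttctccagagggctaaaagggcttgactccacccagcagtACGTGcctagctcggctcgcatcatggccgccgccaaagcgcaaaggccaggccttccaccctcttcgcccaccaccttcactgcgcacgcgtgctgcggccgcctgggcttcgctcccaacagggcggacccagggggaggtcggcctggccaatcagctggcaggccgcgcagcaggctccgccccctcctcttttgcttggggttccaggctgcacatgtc

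Of the naive pluripotency list 23 of 24 promoters were tested. Pou5f1, which encodes Oct4, held 330 alignments in F123, 119 in thinned J1 and 652 in all of J1 (centred log2 0.82). Nanog held 180, 89 and 435 (0.36), Esrrb 133, 65 and 349 (0.38), and Tdgf1, a coreceptor of Nodal abundant in ES cells, 250, 174 and 824 (-0.12). None of these 4 passed 3-fold. The 2 called promoters of the list were both higher in F123: Prdm14, a repressor that protects the naive state, with 46, 8 and 52 alignments (3.34-fold, 1.72 to 9.03), and Nr0b1, the orphan receptor Dax1, with 18, 3 and 39 (3.04-fold, 1.12 to 20.4). With the alignments left out of the draw they stood at 2.46-fold and 1.19-fold, within the threshold. Tcl1, a coactivator of Akt in ES cells, was lowest in the list at -1.20 (44, 65 and 299). Of 299 tested distal bins within 50 kb of these genes, 17 were called in J1 and 2 in F123, both shares below those of all tested bins.

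All 8 tested p53 targets and 9 of 10 tested ATF4 targets lay above the centre, and 1 of the 18 was called. The median log2 ratio of all tested promoters before centring rose with the minimum count. It was 0.36, 0.64 and 0.85 at minima of 5, 10 and 20 alignments, and the lists were not matched for level. Cdkn1a, the p21 inhibitor of cyclin-dependent kinases, held 113 alignments in F123, 18 in thinned J1 and 105 in all of J1 (3.84-fold, 2.43 to 7.02), and 3.14-fold with the alignments left out of the draw. It was not called with a second draw of J1 (1.24 on the centred log2 scale against 1.94) or at the start of the gene record (0.43). Phlda3, a p53-induced inhibitor of Akt, held 52, 15 and 84 (2.12-fold), and Mdm2, the ubiquitin ligase of p53, 194, 78 and 306 (1.58-fold). Of the ATF4 list, Trib3, a pseudokinase of the stress response, held 113, 28 and 182 (2.52-fold), and Psat1, an enzyme of serine synthesis, 50, 12 and 50 (2.51-fold). With the alignments left out of the draw the medians of the lists were 0.50 and 0.53, and the p53 target Ccng1 stood just below the centre (-0.02).

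Signalling lists were mixed at promoters. The Nodal and Lefty list had a median of -0.48 over 6 promoters with none called, ranging from -1.32 at Lefty1, an inhibitor of Nodal, to 0.36 at Nodal itself, and 14 of 50 distal bins within 50 kb were called in J1 and 0 in F123, against 10.3% and 7.2% of all tested bins. Around BMP and Id genes 10 of 52 distal bins were called in J1 and 0 in F123, while their 5 tested promoters had a median of 0.09. Smad7, an inhibitor of these pathways, is on both lists and was the nearest start of 4 J1 sites and 1 F123 site, so that the bins of the lists overlap. The LIF and Stat3 list had a median of 0.42 over 8 promoters with none called, and of 0.01 with the alignments left out of the draw. Of 13 tested FGF and ERK response genes, only Dusp5, a phosphatase of ERK, was called, with 2 alignments in F123, 11 in thinned J1 and 27 in all of J1, and it fell to 2.65-fold with the alignments left out of the draw.

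Lists of other cell types were mostly below the level needed for a comparison. The trophectoderm, mesoderm, fibroblast and Wnt target lists had 1 to 3 tested promoters each and no call, the neural list 3 with Neurod1 called in J1 (9, 19 and 81 alignments, 2.63-fold with the alignments left out of the draw), and 2 of 40 Hox and 1 of 1087 olfactory receptor promoters were tested. The primed epiblast list had 6 of 14 tested (median 0.27) and the primitive endoderm list 10 of 15 (median -0.04), with no call. Of 26 imprinted genes 8 were tested, and Phlda2, a growth regulator of the placenta, was called in J1 (3, 14 and 65 alignments, 5.86-fold, 2.04 to 39.6). The 7 tested MHC class I and interferon genes had a median of -0.30 with no call. Replication-dependent histone genes had a median of -0.41 over 56 promoters, 45 of them below the centre, and only Hist1h3i was called, in J1, which fell to 2.43-fold with the alignments left out of the draw. Hist1h3i and Neurod1 each kept the call in 6 of 17 alternatives. Many histone genes share near-identical sequence, so their counts are uncertain. Windows of clustered histone genes also overlap and count the same alignments more than once. Hist1h2ah and Hist1h2bk, for example, both held 25 in F123 and 30 in thinned J1. The 45 of 56 are therefore not separate promoters.

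Distal bins were called in both directions. Of 16929 tested bins, 1219 (7.2%) were called in F123 and 1741 (10.3%) in J1, and 6687 had at least 10 alignments in both lines and differed by less than 3-fold. F123 reached 10 alignments in 14179 bins and J1 in 9591, and the 6841 bins common to both made up 48.2% of the first list and 71.3% of the second. When each line was given its 14179 highest bins, 60.5% were shared. The log2 counts of the tested bins had a Pearson r of 0.26, a description over bins that had to reach 10 in only 1 line. The bins are shorter than the promoter windows and hold fewer alignments, so this r and the shares of calls are not matched to those of the promoters. Of the calls, 572 in F123 (46.9%) and 1137 in J1 (65.3%) stayed past 3-fold with the alignments left out of the draw, and 1216 and 1739 kept their side. A further 117 bins were past 3-fold towards F123 with an interval that reached the centre and were not called. Without centring the calls were 3085 in F123 and 735 in J1, and with ratios centred within groups of bins of like level they were 563 and 1630.

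Called bins were mostly scattered singly. Joined over gaps of up to 2 kb, they formed 945 F123 sites and 1370 J1 sites, of which 768 and 1105 were a single bin and 62 each held 3 bins or more. Nearest protein-coding starts lay at a median of 23.6 kb from F123 sites and 18.4 kb from J1 sites, and 89.3% of both lay within 100 kb.

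The 5 F123 sites with the most called bins lay within genes or up to 54.0 kb from a start. The site with the most called bins, 8, lay in an intron of Arntl, which encodes the circadian clock factor Bmal1, at chr7:120400001-120410000, and held 454 alignments in F123, 74 in thinned J1 and 375 in all of J1 (3.83-fold, 3.02 to 5.02). Its promoter was not tested (5 and 2 alignments). A site over an exon and introns of 9030624J02Rik (chr7:125960001-125969000) held 192, 18 and 101 (6.42-fold, 4.15 to 11.6). A site between genes, 38.7 kb from the start of the p53-regulated Spata18 (chr5:74082001-74093000), held 133, 14 and 73 (5.64-fold, 3.45 to 11.3). The promoter of Spata18 was not tested either (2 and 1 alignments), and that of 9030624J02Rik, with 10 alignments in both lines, had a centred log2 ratio of -0.64.

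Ssh1 had both a called promoter and the most distal bins of any gene in F123. Its site over exon and intron sequence at chr5:114408001-114414000 held 174 alignments in F123, 10 in thinned J1 and 65 in all of J1 (10.05-fold, 5.83 to 23.3), a second site upstream held 18 in thinned J1 and 114 in all of J1 (4.12-fold higher in F123, 2.62 to 7.52), and its 3 sites together had 12 called bins. A site 15.6 kb upstream of Hsph1, a heat shock protein of the Hsp110 family (chr5:150450001-150459000), held 243, 26 and 100 (5.71-fold, 3.93 to 9.22). Tcf7l1 had 5 F123 sites with 8 bins and Hmga2 had 4 with 7, beside the promoter calls given above. A site without any alignment in thinned J1, named after its values were seen, lay over exon sequence of Sfpi1, the gene of the blood cell factor PU.1, and was nearest the start of Mybpc3 (chr2:90953001-90956000). It held 166 alignments in F123, 0 in thinned J1 and 21 in all of J1, or 93.2-fold and 2.40-fold the genome mean of F123 and of all of J1.

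Of the 5 J1 sites with the most called bins, 4 had smaller ratios than any of the 5 F123 sites. The site with the most called bins, on the Y chromosome between genes, held 107 alignments in F123, 249 in thinned J1 and 1145 in all of J1 (3.67-fold). The tested distal bins of the Y chromosome had a median centred log2 ratio of -1.77. Centred per chromosome, the site stood at -0.11 on the log2 scale, against -1.87. The H3K4me3 signal of F123 over this site was 37.9-fold the genome mean and stood apart from the median of 1.87-fold in J1-called bins. Sgsm1 had a site 17.2 kb upstream (chr5:113751001-113763000) with 130, 235 and 1181 alignments (2.85-fold), Sec14l1 a site 30.5 kb upstream (chr11:116942001-116950000) with 100, 222 and 929 (3.50-fold), and Enc1, a kelch protein, a site 254 kb away over the lincRNA Gm11019 (chr13:98260001-98270000) with 47, 104 and 433 (3.46-fold). Ratios of whole sites include uncalled bins between called ones and may lie under 3-fold.

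The site 11.2 kb upstream of Scd2 differed the most of these 5. It covered chr19:44354001-44360000 and held 25 alignments in F123, 138 in thinned J1 and 657 in all of J1 (8.46-fold, 5.68 to 14.0), and a second Scd2 site held 9, 73 and 394 (11.7-fold). Scd2 and Scd1 are neighbouring desaturase genes, and the Scd1 promoter was called in J1 as well, while that of Scd2 stood at -1.13 (44, 62 and 330). The background around the first Scd2 site was 1.55-fold lower in F123 relative to J1, and the 1 Mb window from chr19:44000001 had the lowest background ratio of 2505 such windows (-0.69 on the log2 scale, 436 alignments against 4238 at full depth). The part of that background in the Scd2 values was not tested. Other J1 sites, named after their values were seen, lay near Cldn3, a tight junction claudin (7, 73 and 376 alignments, 14.6-fold), and Dapl1 (15, 135 and 660, 13.5-fold).

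**Figure D4:**
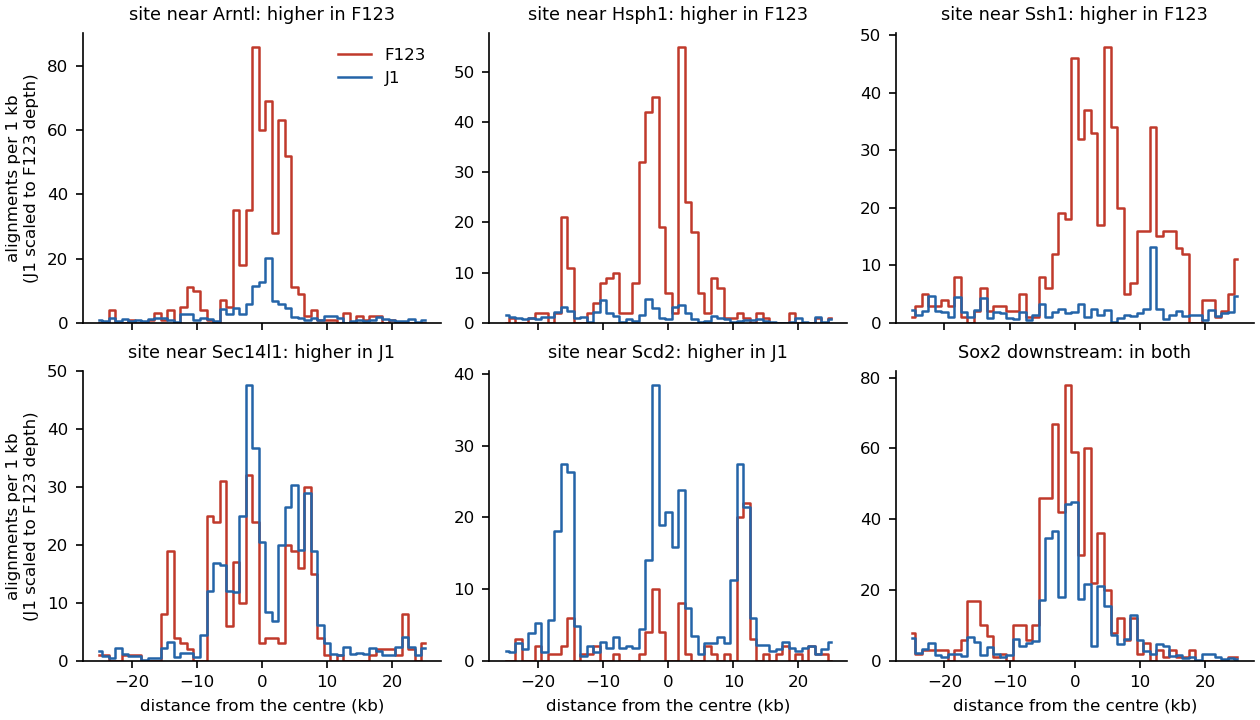
Distinct alignments per 1 kb of F123 and of J1, the latter scaled to the F123 depth, against distance in kb from the centre of 3 F123 sites (near Arntl, Hsph1 and Ssh1), 2 J1 sites (near Sec14l1 and Scd2) and the cluster downstream of Sox2. At the Arntl site the highest bin holds 86 alignments in F123 and the highest of J1 20.2, the Scd2 site has the reverse order in its middle (up to 38.5 in J1), and both lines rise at the Sec14l1 site and downstream of Sox2.

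Runs of bins marked in both lines included long stretches and the Sox2 enhancer cluster. The bins of at least 10 alignments in both lines formed 3286 sites, 1759 of them a single bin, and of the 100 with the most alignments in F123, 77 were also among the 100 highest of J1. The filter on both lines and the ranking by totals, which grow with site length, favour such an overlap. The first in F123 and the second in J1 was a run of 36 kb at Esrrb, an orphan receptor of the pluripotency network (chr12:87814001-87850000), with 1556 alignments in F123, 720 in thinned J1 and 3435 in all of J1 and a centred log2 ratio of 0.45 (0.32 to 0.58). The second in F123 and the first in J1 was a run of 54 kb whose nearest start was Sfi1 (chr11:3031001-3085000), with 1318, 844 and 4057 alignments and a ratio of -0.02 (-0.15 to 0.11). The series held no input library, so at such runs signal that an input would also show cannot be told apart from the mark. The cluster about 105 kb downstream of Sox2 (chr3:34654001-34665000) ranked 17 and 24, with 506, 285 and 1354 alignments and a ratio of 0.16 (-0.05 to 0.38), an interval that included the centre. Of its 11 bins 10 were marked in both lines and none was called.

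Line-specific distal bins lay near promoters that leaned the same way. F123 sites were nearest to 784 genes, of which 506 had a tested promoter and 351 (69.4%) of these were above the centre, while J1 sites were nearest to 1110 genes, with 450 of 727 tested promoters (61.9%) below it. Of promoters called in F123, 25.4% had an F123-called bin within 50 kb and 3.73% a J1-called bin, and of promoters called in J1, 4.28% and 27%. For all tested promoters these shares were 8.84% and 15.7%. Promoter and bin counts come from the same 2 libraries and share the local background, so they do not replicate each other. Among the 506 F123-site genes 29 promoters were called in F123 and 13 in J1, and among the 727 J1-site genes 75 were called in J1 and 7 in F123, against 1.6% in F123 and 6.41% in J1 of all tested promoters.

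H3K4me3 and RNA were measured in F123 only and did not enter the calls, but F123 H3K27ac did. Its median was 5 alignments at J1-called promoters by this selection, against 35.5 at F123-called promoters and 32 at those marked in both. The classes were not matched for it, so their order in F123 is not independent of the calls. Promoters called in J1 had less H3K4me3 in F123, with a median of 5.04-fold the genome mean against 11.3-fold for those called in F123 and 13.5-fold for those marked in both. At 50.2%, 74.6% and 90.4% of these promoters H3K4me3 was above 5-fold. The median RNA level of the genes was 4.0 FPKM (alignments scaled by exon length and library depth) for J1-called, 15.2 for F123-called and 18.2 for promoters of both lines, and 74.2%, 91.7% and 94.9% reached 1 FPKM. J1-called genes thus had the lowest levels of both, as they had of F123 H3K27ac, and no J1 level was measured. Single genes departed from this order, since Scd1 had 37.4 FPKM and Slc39a4 22.8 in F123, and Gm10775 had 0.44. At distal bins H3K4me3 was low in all classes, with medians of 1.87-fold in F123-called and J1-called bins and 2.24-fold in bins of both lines.

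**Figure D5:**
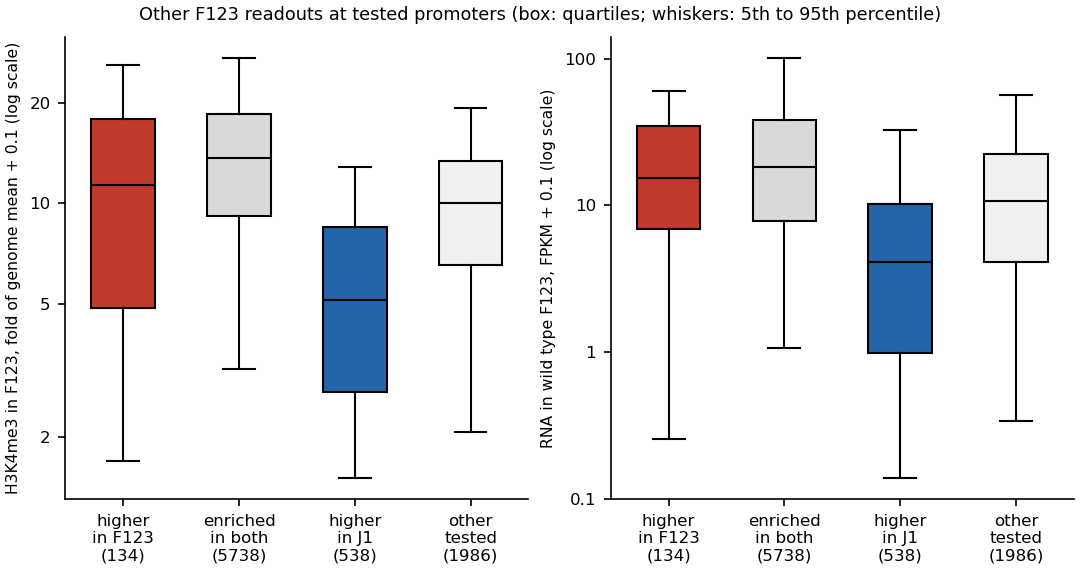
H3K4me3 as fold of the genome mean and RNA in FPKM, both from F123 and on log axes with 0.1 added, at tested promoters called in F123, marked in both lines, called in J1 and not in these classes, with boxes for quartiles, lines for medians and whiskers from the 5th to the 95th percentile. Medians of promoters called in J1 are the lowest, at 5.04-fold and 4.0 FPKM.

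The shares of distal bins that hold each of the 7 strings are given by class, with no test between classes. The Esrrb string TCAAGGTCA occurred in 6.15% of F123-called bins, 4.83% of J1-called bins and 7.03% of bins marked in both lines, against 2.12% of all distal bins. The Klf string GGGTGTGG occurred in 13.5%, 13.2% and 16%, against 5.74%, and the Stat string TTCCNGGAA in 5.09%, 4.54% and 4.82%, against 2.54%. These strings were thus more frequent in tested than in other bins, in each class. The octamer ATGCAAAT (6.15%, 5.92% and 5.82%, against 8.71%), the Sox string ACAATG (40%, 39.9% and 39.7%, against 49.8%) and the GATA string AGATAA (35.5%, 38.3% and 35.7%, against 51.1%) were less frequent than in all bins, and TGANTCA (27.6%, 27.2% and 27.8%) was near its share of 26.7%. Median GC content was 48.4%, 47.9% and 48.8% in the 3 classes and 41.3% in all distal bins, so the shares against all bins are not matched for base composition. The bins were 1 kb long and both strands were searched.

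The calls were not spread evenly over the chromosomes. On chromosome 7, 11.2% of tested promoters were called in J1 and 0.43% in F123, and on the Y chromosome 23 of 34 tested distal bins were called in J1 and 0 in F123. The background outside windows, as the log2 ratio of F123 to J1, was 0.31 on the X chromosome, 0.03 on the Y chromosome and between -0.09 and 0.14 on the autosomes. The background around called windows moved slightly with the calls. Its median was 0.09 at F123-called and -0.10 at J1-called promoters, and 0.10 and -0.13 at distal bins. The class medians of ratios were 1.86 and -2.06 for promoters and 2.14 and -2.12 for distal bins. These are past 3-fold by the calling rule, and the part of the background in them was not tested.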

How the data were processed

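The authors aligned the ChIP reads to the mouse genome (mm9) with Bowtie and deposited them as lists of alignments; the Bowtie version was not given in the sources used here. From the deposited lists, counts were made of distinct alignments (each position and strand once, 36 bases long, by 5′ end), so that repeated reads did not enter. RNA levels, in FPKM, were computed here from distinct alignments of the wild type F123 library, which the authors had aligned with Novoalign. No input library was among the samples, and none was subtracted. J1 was thinned to the F123 depth with a fixed seed (7). Promoter windows reached 2 kb around the protein-coding start with the most alignments in the GENCODE M1 annotation. Ratios were log2 with 1 added to each count. Windows with at least 10 alignments in the higher line were tested and called past 3-fold, with exact binomial (Clopper-Pearson) intervals at the 95% level. One library per line allows no p-value, and lines at 0 were given a bound from a floor of 3 alignments per library. Called bins were joined over gaps of up to 2 kb.

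Named were the 10 promoters of largest centred ratio per line, the members of the gene lists, and the 5 sites per line with the most called bins; other genes are marked in the text as named after their values were seen. The members and lists were chosen with earlier results of these data known. The calling was also run on simulated data. No outcome of that run is given here, and it does not show how accurate the calls are in these libraries. Variation between libraries could not be estimated from these data for such a simulation. The versions were scipy 1.17.1 for intervals, pysam 0.24.0 for sequences, numpy 2.4.6 with pandas 2.3.3 for counting, and matplotlib 3.10.9, under Python 3.11.15. The knockout RNA libraries were not used. Of the items the rules select, 1 sequence is not reported here.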

Additional observations from a re-analysis of the deposited data

How the results depend on the processing

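Over 18 alternatives, 56 of 83 counts of calls stayed within 1.5 times the values above (134 and 538 promoters, 1219 and 1741 distal bins called in F123 and J1, and 6687 bins marked in both lines), and 27 did not. Without centring, 699 promoters and 3085 distal bins were called in F123 and 186 and 735 in J1, and J1 had 21.0% of the promoter calls and 19.2% of the distal calls in place of 80.1% and 58.8%. With centring within groups of level, 563 distal bins were called in F123, and J1 had 74.3% of the distal calls. With J1 at full depth, scaled, 59 promoters and 733 bins were called in F123. With the J1 alignments left out of the draw, an alternative added after seeing the data, 64 promoters were called in F123. Adding 5 to each count gave 41 and 235 promoters and 164 and 814 bins in F123 and J1, and J1 then had 83.2% of the distal calls. A minimum of 20 alignments gave 57 and 184 promoters, 347 and 382 bins, and 2027 bins in both lines, and a minimum of 5 gave 278 F123 promoters, 2201 and 4820 bins, and 17327 in both. A threshold of 2-fold gave 490 and 949 promoters, and one of 5-fold gave 18 and 151 promoters and 468 and 679 bins. The cause of these shifts was not tested, beyond the smaller or larger number of windows that the minimum and the threshold admit.

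For 32 named promoters and 10 named sites, 681 values under the alternatives gave 509 with the same call, 163 in the same direction without the call (through the fold, the interval or the minimum count), 6 that gained it and 3 that changed direction. The 3 were Eps8 at the start of the gene record (-0.0671 on the log2 scale) and Sptlc1 there (-1.97) and with the J1 alignments left out of the draw, centred anew (-0.24). No paired analysis was possible because each line had 1 library, and for the same reason none could be left out. Counting each position once per strand could not change a value, since no position was repeated, and is not among these. Depth limits the comparison at low counts, where the lower line held 0 alignments at 13 called promoters and 323 called distal bins.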

Other observations

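Single distal bins without an alignment in one line at equal numbers of distinct alignments were seen in both directions. In F123 these included a bin 147 kb from the start of the estrogen receptor gene Esr1 (chr10:5489001-5490000), with 46 alignments in F123, 0 in thinned J1 and 1 in all of J1, at least 9.68-fold higher in F123. A bin 68.0 kb from Syne1 (chr10:5345001-5346000), on the same stretch of chromosome 10, had 43, 0 and 2 alignments and was at least 9.05-fold higher. In J1 they included a bin near Secisbp2 with 0 alignments in F123, 26 in thinned J1 and 80 in all of J1, and a bin of the Scd2 site with 0, 26 and 101. These bins were chosen after their values were seen. Whether the F123 genome differs from the reference in these places was not tested.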
